A study of Mus musculus with 20 samples.

Results

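Interferon-stimulated genes are the genes that cells switch on when an interferon, an antiviral cytokine, binds its receptor. A list of 38 such genes was described, from antiviral RNA-binding proteins to sensors, guanosine triphosphatases (GTPases) and ubiquitin ligases. They were taken by gene symbol, with earlier results of these data known, and each was read from the probe set that carries its symbol. Of the 38 genes, 34 had such a probe set among the 17771 genes of the array, and 31 were bright enough to be tested, among 11766 tested genes. Isg15, Oas1a, Ifi44 and Gbp5 had no probe set of that symbol and are not analysed here. Mx1, Tap1 and Xaf1 were measured but lay below the array's 40th percentile on all 20 arrays.

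The cells were eosinophils, the granulocytes of allergic inflammation, grown from the bone marrow of Dusp5+/+ (wild-type) and Dusp5-/- (knockout) mice. Dusp5 encodes a nuclear phosphatase that switches off the MAP kinases ERK1 and ERK2. On day 12 of culture, cells from 5 mice of each genotype were kept in medium without IL-33, or were given IL-33, an alarm cytokine of damaged epithelium, at 25 ng/ml for 4 hours. This gave 4 groups of 5 arrays: wild type in medium, wild type with IL-33, knockout in medium and knockout with IL-33. Titles of the IL-33 samples carry the word Dusp5 where the treatment would stand. The groups were therefore taken from the treatment and genotype labels. The labels name no interferon treatment in any group. The sources used here do not give the ages of the mice, the deleted part of Dusp5 or the growth factors of the culture.

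Array medians lay between 4.25 and 4.32 on the log2 scale, arrays of 1 group correlated at 0.976 to 0.996, and precision is limited by how many arrays there are. Dusp5 averaged 8.15 and 9.77 in wild-type cells without and with IL-33 and 4.40 and 4.95 in knockout cells, and no array went against its genotype label. The eosinophil granule genes Epx and Prg2 were bright in every group, with means between 13.26 and 13.82. Markers of other cells were also bright enough to be tested. They were 8 of 8 markers of plasmacytoid dendritic cells, 10 of 12 of macrophages and dendritic cells and 8 of 8 of neutrophils. Of mast cells and basophils 7 of 9 were tested, and of lymphocytes 5 of 9. In RNA from a mixed culture, fewer cells of a type and less RNA per cell cannot be told apart.

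As background, type I interferons act through a receptor that carries the kinases JAK1 and TYK2 and lead to a transcription factor complex that includes STAT2 and IRF9. That complex binds the interferon-stimulated response element (ISRE) in the promoters of its targets, whereas interferon gamma acts on its targets through the gamma-activated site (GAS). IL-33 signals by a different route, through the adaptor MyD88 to NF-kB and MAP kinases.

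The letters of these elements were looked for in the promoters, because the members share a signalling pathway but did not move in 1 direction after IL-33. The RefSeq promoter table (build GRCm38.p6) holds 250 bases before to 50 bases after each gene's start, and 26 of the 34 measured members were in it. Missing were Mx1, Zbp1, Usp18, Parp9, Parp14 and the called members Dhx58, Tap2 and Mx2, so nothing is said here of their promoters. The core of the ISRE is GAAA, any 2 bases, then GAAA on either strand. It was present in 12 of the 26 members (46.2%) and in 3.99% of the 27025 genes of the table. In the bases before the start alone it was in 9 of 26 members (34.6%) and in 3.46% of all genes. The members were listed as interferon-stimulated genes, so these shares describe the list and test nothing. The GAS letters, TTCNNNGAA, were in 7 of 26 members (26.9%) and in 9.55% of all genes. The NF-kB letters, GGG, any 5 bases, then CC on either strand, were in 18 of 26 members (69.2%), in 53.5% of all genes and in 70.9% of the tested genes. Some matches of the ISRE core overlap each other, and each gene counts once. A match describes the letters and is not a measured binding site.

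The ISRE core was held by members that rose with IL-33 in both genotypes (Gbp2, Gbp3 and Igtp), by members that fell in at least 1 genotype (Ifit3, Trim21, Ifih1 and Bst2), by Eif2ak2, which rose in knockout cells, and by Ifit1, Irgm1, Rsad2 and Trim30a, which were not called. It was absent from these windows of Samd9l, which rose in both genotypes, of Trim25, Oasl2, Herc6, Nmi, Ifit2 and Dtx3l, which fell in at least 1, and of 7 members that were dim or not called. The 170 bases before the start are printed for 6 holders, because they show the same core beside risers (Gbp2, Gbp3, Igtp), a faller (Ifit3) and uncalled members (Irgm1, Ifit1). Capitals mark every match of the ISRE core on either strand, TTTC being the reverse complement of GAAA. The windows lie at chr3:142620493-142620662 (Gbp2, + strand), chr3:142559874-142560043 (Gbp3, +), chr11:58199386-58199555 (Igtp, +), chr11:48871421-48871590 (Irgm1, - strand), chr19:34583359-34583528 (Ifit3, +) and chr19:34640719-34640888 (Ifit1, +).
Gbp2: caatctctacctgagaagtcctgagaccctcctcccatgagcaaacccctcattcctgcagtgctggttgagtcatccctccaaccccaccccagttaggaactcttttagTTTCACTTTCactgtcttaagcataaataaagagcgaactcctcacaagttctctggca
Gbp3: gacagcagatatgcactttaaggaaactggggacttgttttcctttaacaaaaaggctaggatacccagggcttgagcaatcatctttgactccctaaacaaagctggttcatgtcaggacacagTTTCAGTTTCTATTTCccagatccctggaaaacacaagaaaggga
Igtp: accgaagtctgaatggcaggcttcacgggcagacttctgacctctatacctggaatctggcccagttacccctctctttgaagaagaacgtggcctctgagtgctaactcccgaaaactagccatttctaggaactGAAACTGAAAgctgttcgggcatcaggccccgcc
Irgm1: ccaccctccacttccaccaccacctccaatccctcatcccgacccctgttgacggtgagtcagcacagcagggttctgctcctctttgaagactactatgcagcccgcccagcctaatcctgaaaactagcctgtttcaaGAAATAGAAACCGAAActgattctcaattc
Ifit3: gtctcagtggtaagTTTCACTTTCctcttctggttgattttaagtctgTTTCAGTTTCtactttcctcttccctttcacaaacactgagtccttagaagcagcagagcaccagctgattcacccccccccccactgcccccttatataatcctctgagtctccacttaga
Ifit1: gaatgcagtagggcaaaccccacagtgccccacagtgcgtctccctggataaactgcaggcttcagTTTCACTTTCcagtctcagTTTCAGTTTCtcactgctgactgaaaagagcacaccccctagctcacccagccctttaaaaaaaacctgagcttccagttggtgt

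The match of Gbp2 lies at -59 to -50 from the start, and the overlapping pair of Gbp3 at -45 to -30. That of Igtp lies at -34 to -25 and the pair of Irgm1 at -30 to -15. The Ifit genes held theirs farther out, Ifit3 at -156 to -147 and -122 to -113, and Ifit1 at -104 to -95 and -85 to -76.

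The first comparison asked what 4 hours of IL-33 do to these genes in each genotype. The members went both ways. In wild-type cells 14 of the 31 tested members passed an adjusted p of 0.05 in limma, 5 higher and 9 lower, where 42.7% of all tested genes passed (16.1% higher and 26.7% lower). In knockout cells 16 passed, 5 higher and 11 lower, where 52.2% of all tested genes passed (18.9% higher and 33.2% lower). The share of members called is thus near that of all genes in both genotypes. Of 5 tested interferon-inducible GTPases 3 rose in each genotype, led by Gbp2 (2.55 ± 0.20 on the log2 scale in wild-type cells and 2.83 ± 0.20 in knockout cells, log2 difference ± SE) and Gbp3. The largest falls were those of the ubiquitin ligase gene Trim25 (-0.99 ± 0.08 and -1.16 ± 0.08). The members' median change was -0.07 (wild type) and -0.14 (knockout), beside -0.05 and -0.08 for all tested genes.

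The members called in both genotypes numbered 12, all in the same direction: Gbp2, Gbp3, Igtp and Samd9l rose, and Trim25, Trim21, Dhx58, Tap2, Oasl2, Ifit3, Herc6 and Nmi fell. Ifih1 and Mx2 passed in wild-type cells but not in knockout cells, and Ifit2, Eif2ak2, Bst2 and Dtx3l the other way round. For none of these 6 was the difference between genotypes called, as given with the interaction. The remaining 13 tested members were called in neither genotype.

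Markers of cell types also changed with IL-33. Of 7 tested eosinophil markers 3 fell in each genotype and none rose: Siglecf by 0.71 ± 0.15 and 0.61 ± 0.15, Il5ra by 0.84 ± 0.16 and 1.08 ± 0.16, and Alox15 by 0.53 ± 0.09 and 0.62 ± 0.09. The summed level of the eosinophil markers, as log2 of the sum, was 15.04 to 15.44 in wild-type medium arrays, 14.92 to 15.35 with IL-33, 15.08 to 15.31 in knockout medium arrays and 14.93 to 15.23 with IL-33. Of 10 tested macrophage and dendritic cell markers, 3 rose and 1 fell in wild-type cells, and 3 rose and 4 fell in knockout cells. The risers were Batf3 (1.60 ± 0.16 and 1.85 ± 0.16), Adgre1 (0.70 ± 0.18 and 0.66 ± 0.18) and Csf1r (0.62 ± 0.13 and 0.54 ± 0.13). Among the fallers, Cx3cr1 passed in each genotype (-0.82 ± 0.16 and -0.59 ± 0.16). Cd68 (-0.49 ± 0.12), C1qa (-0.40 ± 0.16) and C1qc (-0.55 ± 0.15) passed with knockout arrays only. Over the 10 markers the median change was negative, at -0.21 (wild type) and -0.24 (knockout). The summed level of that list was 12.85 to 13.51 in wild-type medium arrays, 13.24 to 13.70 with IL-33, 12.99 to 13.51 in knockout medium arrays and 13.23 to 13.72 with IL-33. Of 7 tested mast cell and basophil markers, 1 rose and 3 fell in each genotype. Their summed level was 13.59 to 13.80 in wild-type medium arrays and 13.33 to 13.67 with IL-33. In knockout cells it was 13.61 to 13.78 and 13.45 to 13.54. Of 5 tested lymphocyte markers, 2 rose and 1 fell in wild-type cells, and 1 fell in knockout cells. None of the 8 neutrophil markers was called. The part of these cell types in the changes of the members was not tested.

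**Figure D1:**
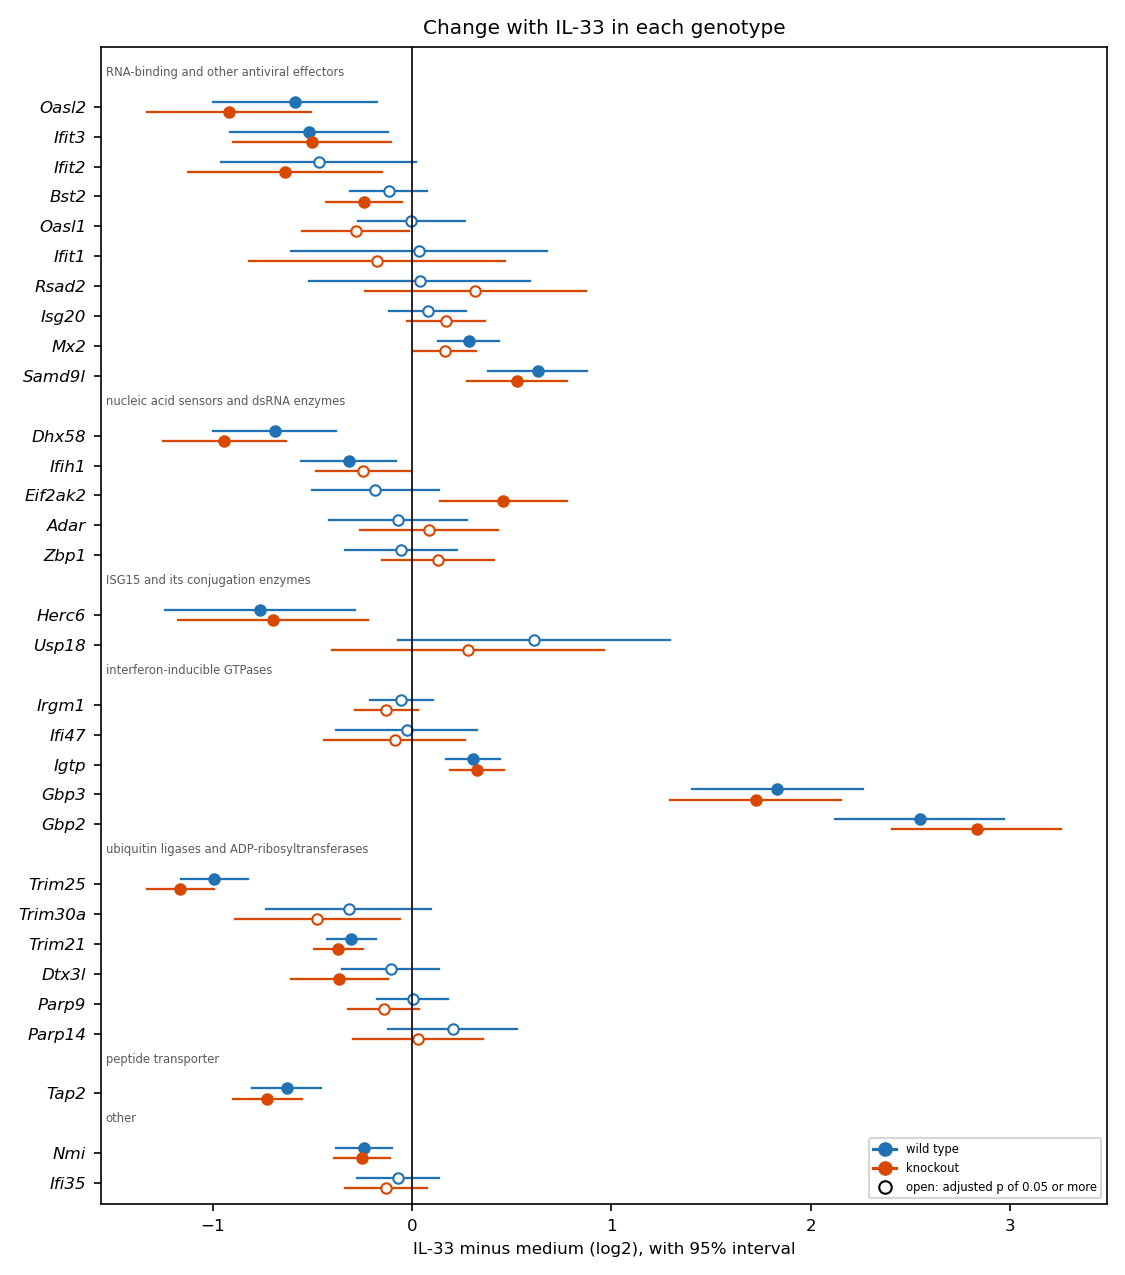
Change with IL-33 of the 31 tested interferon-stimulated genes (horizontal axis, IL-33 minus medium, log2, with the 95% interval of the limma fit), grouped by role, in wild-type (blue) and knockout (orange) cells. Filled points passed an adjusted p of 0.05. Gbp2 and Gbp3 stand apart on the right, between 1.72 and 2.83, and Trim25 lies farthest left.

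The GTPases are large or immunity-related guanosine triphosphatases that coat and disrupt vacuoles holding microbes. Gbp2 (probe set 1418240_at) stood at 5.04, 4.69, 4.73, 4.82 and 4.28 on the medium arrays of wild-type mice 1 to 5, in that order, and at 7.36, 7.86, 6.998, 7.25 and 6.82 on their IL-33 arrays. On the knockout arrays it stood at 4.54, 4.96, 4.39, 5.00 and 5.18 in medium and at 7.16, 7.84, 7.33, 8.06 and 7.84 with IL-33. All 10 IL-33 arrays, the lowest at 6.82, lay above all 10 medium arrays, the highest at 5.18. The rise was 5.84-fold in wild-type cells (adjusted p = 4.23e-09) and 7.12-fold in knockout cells (adjusted p = 5.81e-10).

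Gbp3 (1418392_a_at), on chromosome 3 like Gbp2, stood at 4.44, 4.10, 4.56, 4.33 and 3.54 in wild-type medium arrays and at 6.24, 6.17, 5.70, 6.12 and 5.89 with IL-33. In knockout cells the values were 3.65, 4.50, 3.99, 3.98 and 4.60 in medium and 6.26, 5.63, 6.22, 5.80 and 5.44 with IL-33. Again no IL-33 array overlapped a medium array of its genotype, and 1 medium array, that of wild-type mouse 5, lay below the 40th percentile. The rises were 1.83 ± 0.21 (3.56-fold, adjusted p = 5.06e-07) and 1.72 ± 0.21 (3.30-fold, adjusted p = 7.43e-07). Igtp, an immunity-related GTPase, rose by 0.31 ± 0.06 in wild-type (adjusted p = 7.44e-04) and 0.32 ± 0.06 in knockout cells (adjusted p = 3.21e-04), with no overlap between the groups of a genotype. Irgm1, a regulator of the same family, stood at -0.05 ± 0.08 and -0.13 ± 0.08, and Ifi47 at -0.03 ± 0.17 and -0.09 ± 0.17; neither was called. Irgm1 passed in knockout cells without the IL-33 array of knockout mouse 4 (-0.19, adjusted p = 0.0371).

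**Figure D2:**
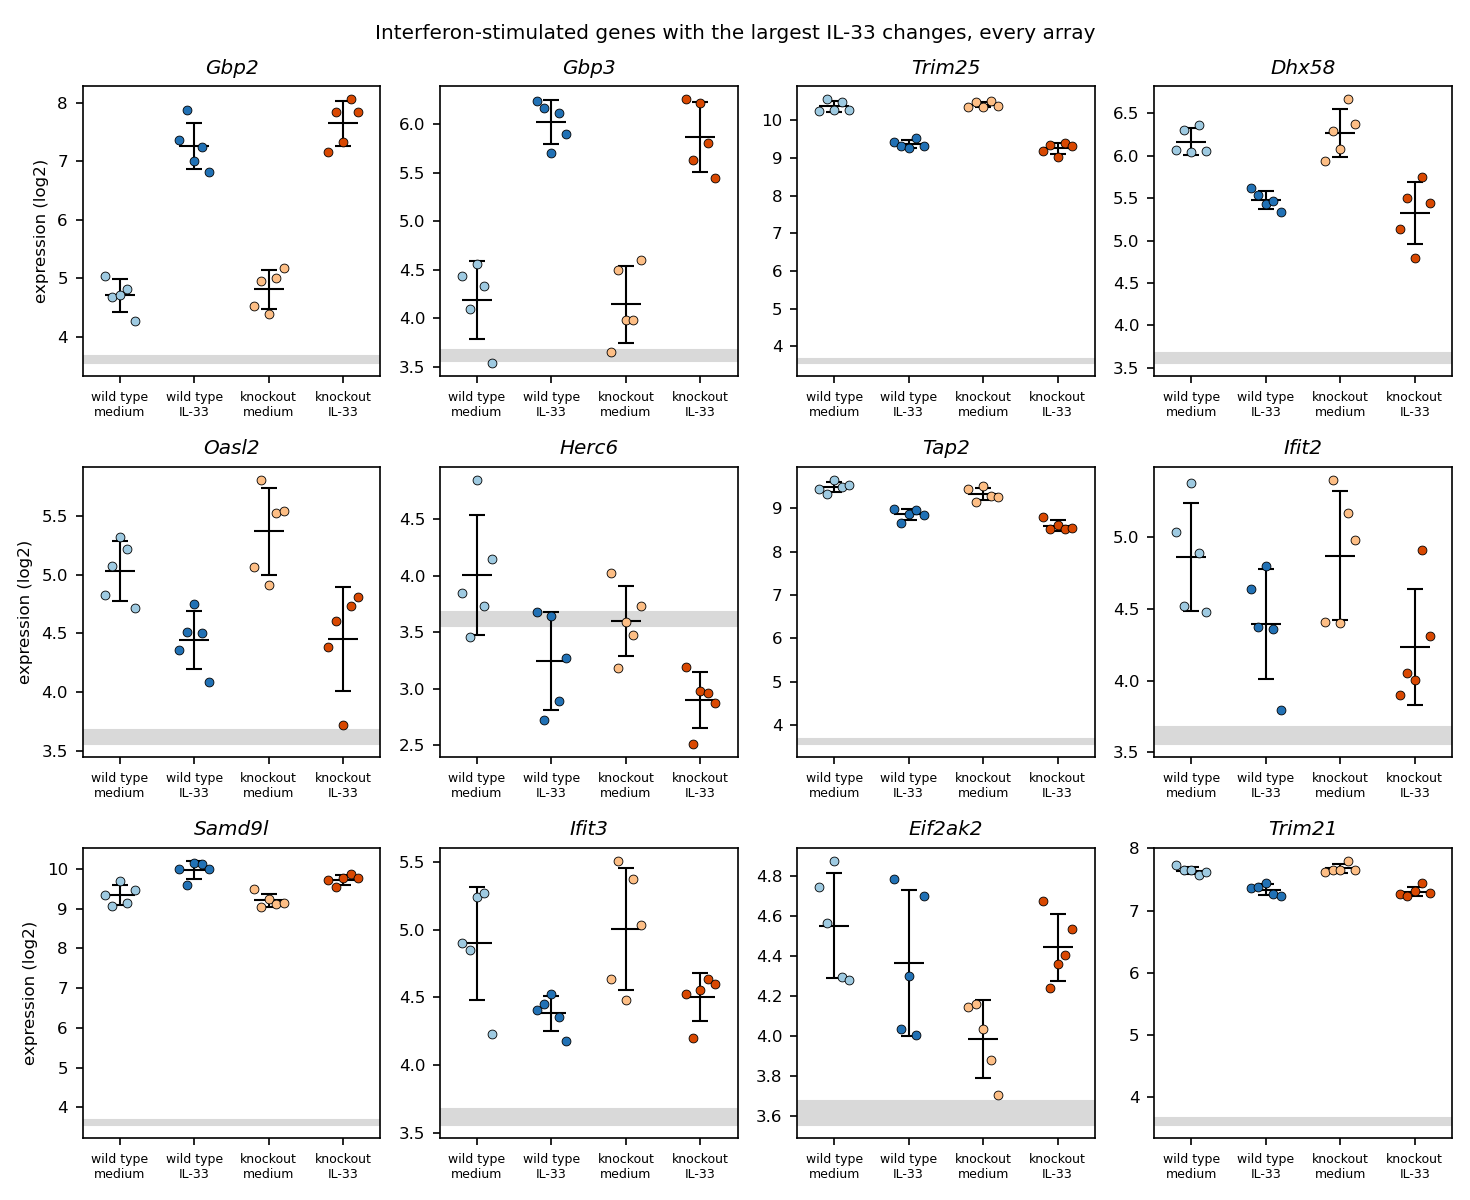
Log2 level on every array (points; mice 1 to 5 from left to right in each group) of the 12 called members with the largest IL-33 changes, in the 4 groups, with the group mean and SD (bars). The grey band is the range of the arrays' 40th percentile, 3.56 to 3.68, and each panel has its own vertical axis. Gbp2 and Gbp3 are higher with IL-33 on every array, and Trim25, Dhx58, Tap2 and Trim21 are lower.

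Among the ubiquitin ligases and ADP-ribosyltransferases, 2 of 6 tested members fell in wild-type cells and 3 in knockout cells, and none rose. Trim25 is the ubiquitin ligase that activates the RNA sensor RIG-I. Its probe set (1419879_s_at, a type that can also match related transcripts) stood at 10.24, 10.56, 10.29, 10.48 and 10.27 in wild-type medium arrays and at 9.42, 9.33, 9.27, 9.54 and 9.32 with IL-33. The knockout arrays gave 10.36, 10.48, 10.35, 10.52 and 10.38 in medium and 9.17, 9.35, 9.04, 9.39 and 9.32 with IL-33. No IL-33 array reached the lowest medium array, and the falls were 1.99-fold (adjusted p = 5.15e-09) and 2.24-fold (adjusted p = 3.32e-10).

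Trim21 (1448940_at), a cytosolic antibody receptor and ubiquitin ligase, stood at 7.74, 7.65, 7.64, 7.57 and 7.62 in wild-type medium arrays and at 7.36, 7.38, 7.44, 7.27 and 7.24 with IL-33. In knockout cells it stood at 7.63, 7.66, 7.66, 7.79 and 7.64 and 7.27, 7.23, 7.31, 7.44 and 7.28. The fall was small but without overlap: -0.30 ± 0.06 (adjusted p = 3.10e-04) and -0.37 ± 0.06 (adjusted p = 2.57e-05). Its spread within groups was the smallest of the 31 members. Dtx3l, a ligase that works with Parp9, fell in knockout cells by 0.37 ± 0.12 (adjusted p = 0.0128; 0.0562 after a further quantile normalization) and stood at -0.11 ± 0.12 in wild-type cells. Parp9 was at 0.00 ± 0.09 and -0.14 ± 0.09, and Parp14, an ADP-ribosyltransferase, at 0.20 ± 0.16 and 0.03 ± 0.16; neither was called. With mice as a fixed block Parp14 passed in wild-type cells (adjusted p = 0.0262).

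Trim30a is a mouse TRIM protein that restrains NF-kB signalling. It was lower with IL-33 in all 10 mice, at -0.32 ± 0.20 in wild-type (adjusted p = 0.209) and -0.48 ± 0.20 in knockout cells (adjusted p = 0.0502), and its groups overlapped. With mice as a random block the adjusted p was 0.0405 and 0.00282, and with a fixed block 0.00511 and 2.25e-04. In knockout cells Trim30a passed too with the filter at the 60th percentile (0.0438) or each array centred on its median (0.0455). So it did with only the knockout arrays in the fit (0.0418) or an intensity trend (0.0492), and without both arrays of wild-type mouse 1, 2 or 5 (0.0259 to 0.0470). The knockout value also passed in several settings without 1 array (adjusted p = 0.0259 to 0.0488), namely knockout medium array 1 or 3, knockout IL-33 array 4 or 5, or wild-type IL-33 array 1, 2 or 5.

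Among the nucleic acid sensors and enzymes of double-stranded RNA, Dhx58 and Ifih1 fell in wild-type cells, and in knockout cells Dhx58 fell and Eif2ak2 rose, of 5 tested. Dhx58 encodes LGP2, a helicase that tunes RNA sensing by RIG-I and MDA5. Its probe set (1451426_at) stood at 6.07, 6.30, 6.05, 6.36 and 6.05 in wild-type medium arrays and at 5.62, 5.53, 5.43, 5.46 and 5.34 with IL-33. On the knockout arrays the levels were 5.94, 6.29, 6.07, 6.67 and 6.37 in medium and 5.14, 5.50, 4.80, 5.75 and 5.44 with IL-33. The groups did not overlap, and the falls were 0.69 ± 0.15 (adjusted p = 8.06e-04) and 0.94 ± 0.15 (adjusted p = 2.29e-05).

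Ifih1, which encodes the sensor MDA5, fell in wild-type cells by 0.32 ± 0.11 (adjusted p = 0.0299) and stood at -0.25 ± 0.11 in knockout cells (adjusted p = 0.0769). It was lower with IL-33 in all 10 mice. The wild-type call was lost after a further quantile normalization (adjusted p = 0.131). It was also lost without medium array 1, 2 or 3 or IL-33 array 3, 4 or 5 (0.0529 to 0.0883). Leaving out both arrays of wild-type mouse 2, 3 or 5 lost it as well (0.0501 to 0.126). In knockout cells Ifih1 passed with mice as a random (0.0135) or fixed block (0.0150), and without knockout IL-33 array 4 (0.0303) or 5 (0.0419).

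Eif2ak2 encodes PKR, the kinase that halts translation when it binds double-stranded RNA. Its probe set (1440866_at) stood at 4.74, 4.56, 4.87, 4.30 and 4.28 in wild-type medium arrays and at 4.79, 4.04, 4.30, 4.01 and 4.70 with IL-33. In knockout cells the values were 4.15, 4.16, 4.03, 3.88 and 3.71 in medium and 4.68, 4.24, 4.36, 4.41 and 4.53 with IL-33. The knockout groups did not overlap and the wild-type groups did. The change was 0.46 ± 0.15 in knockout cells (adjusted p = 0.0166) and -0.19 ± 0.15 in wild-type cells (adjusted p = 0.347). The knockout call was lost without knockout medium array 5 (0.39, adjusted p = 0.0515) or without both arrays of knockout mouse 4 (0.0512) or 5 (0.0914). Zbp1, a sensor of Z-form nucleic acid, and Adar, which edits double-stranded RNA, were between -0.07 and 0.13 and were not called.

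The antiviral effectors went both ways. Of 10 tested, 2 rose and 2 fell in wild-type cells, and 1 rose and 4 fell in knockout cells. Samd9l, a restriction factor of poxviruses that curbs translation, was the riser called in both genotypes. Its probe set (1460603_at) gave 9.35, 9.08, 9.70, 9.16 and 9.46 in wild-type medium arrays and 10.01, 9.61, 10.15, 10.13 and 10.00 with IL-33. The knockout arrays gave 9.49, 9.05, 9.24, 9.12 and 9.15 and 9.72, 9.54, 9.76, 9.88 and 9.77. Every mouse was higher with IL-33, although the IL-33 array of wild-type mouse 2 lay within the range of the medium arrays. The rises were 0.63 ± 0.12 (adjusted p = 2.56e-04) and 0.53 ± 0.12 (adjusted p = 0.00101).

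Mx2, a dynamin-like antiviral GTPase, was dim. It lay below the 40th percentile on all 5 wild-type medium arrays and above it on 4 of 5 with IL-33, and rose by 0.28 ± 0.07 in the fit (adjusted p = 0.00404), a bound of at least 1.11-fold once dim arrays are raised to their percentile. In knockout cells it was at 0.17 ± 0.07 (adjusted p = 0.0660; 0.0286 with mice as a random block). The knockout value passed without wild-type IL-33 array 3 (0.0495) and without knockout IL-33 array 2 (0.0377) or 5 (0.0429).

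Oasl2, a member of the oligoadenylate synthetase family, fell. Its probe set (1453196_a_at) stood at 4.83, 5.07, 5.32, 5.22 and 4.72 in wild-type medium arrays and at 4.36, 4.51, 4.75, 4.51 and 4.09 with IL-33. The knockout values were 5.07, 5.81, 4.91, 5.53 and 5.54 in medium and 4.39, 4.61, 3.72, 4.74 and 4.81 with IL-33. All 10 mice were lower with IL-33, and the groups did not overlap in knockout cells. The falls were 0.59 ± 0.20 (adjusted p = 0.0207) and 0.92 ± 0.20 (adjusted p = 5.80e-04). The wild-type call was lost without medium array 3 (-0.51, adjusted p = 0.0562) or IL-33 array 5 (-0.50, 0.0611), and without both arrays of wild-type mouse 4 (-0.56, 0.0660). Its relative Oasl1, which represses translation of Irf7, stood at -0.00 ± 0.13 and -0.28 ± 0.13 (adjusted p = 0.0687 in knockout cells; 0.00795 and 0.00437 with mice as a random or fixed block). The knockout value of Oasl1 also passed without knockout medium array 1 (0.0364) or knockout IL-33 array 4 (0.0153).

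The Ifit proteins bind foreign RNA and block its translation. Ifit3 (1449025_at) stood at 4.90, 4.85, 5.24, 5.27 and 4.23 in wild-type medium arrays and at 4.40, 4.45, 4.53, 4.35 and 4.18 with IL-33. On the knockout arrays it stood at 4.64, 5.51, 4.48, 5.38 and 5.03 and 4.53, 4.20, 4.56, 4.63 and 4.60. It was lower with IL-33 in 9 of 10 mice, the exception being a knockout mouse (mouse 3), and the groups overlapped. The change was -0.52 ± 0.19 (adjusted p = 0.0339) and -0.50 ± 0.19 (adjusted p = 0.0320). The wild-type call was lost without medium array 1, 3 or 4 or IL-33 array 4 or 5 (adjusted p = 0.0551 to 0.0934). It was also lost without both arrays of wild-type mouse 1, 2, 3 or 4 (0.0585 to 0.137). The knockout call was lost without medium array 2, 4 or 5 or IL-33 array 2 (0.0546 to 0.0993). Leaving out both arrays of knockout mouse 2, 4 or 5 also lost it (0.0646 to 0.214).

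Ifit2 (1418293_at) stood at 5.04, 4.52, 5.38, 4.89 and 4.48 in wild-type medium arrays and at 4.64, 4.38, 4.80, 4.36 and 3.80 with IL-33. In knockout cells it stood at 4.41, 5.40, 4.40, 5.17 and 4.99 and 3.90, 4.05, 4.00, 4.91 and 4.31. All 10 mice were lower with IL-33, while the groups overlapped. The change was -0.47 ± 0.23 in wild-type cells (adjusted p = 0.114; 0.0168 and 0.00700 with mice as a random or fixed block) and -0.64 ± 0.23 in knockout cells (adjusted p = 0.0278). The knockout call was lost without knockout medium array 2, 4 or 5 or IL-33 array 1, 2 or 3 (adjusted p = 0.0548 to 0.0826). It was also lost without both arrays of knockout mouse 2 (0.148) or 5 (0.0700).

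The other antiviral members moved less. Bst2, the surface protein tetherin that holds budding virions, fell in knockout cells by 0.24 ± 0.09 (adjusted p = 0.0332) and stood at -0.12 ± 0.09 in wild-type cells. That call was lost after a further quantile normalization (adjusted p = 0.163). It was also lost without knockout medium array 2, 4 or 5 or IL-33 array 1, 2 or 3 (0.0533 to 0.0985). Leaving out both arrays of knockout mouse 2, 3, 4 or 5 lost it as well (0.0520 to 0.0888). Ifit1 was at 0.03 ± 0.31 and -0.17 ± 0.31, and Rsad2, which encodes viperin, at 0.04 ± 0.27 and 0.32 ± 0.27. Isg20, an RNA exonuclease, was at 0.08 ± 0.09 and 0.17 ± 0.09. Of these 3 only Isg20 passed in any setting, in knockout cells, with a random (adjusted p = 0.0367) or fixed block (0.0440), after a further quantile normalization (0.32, 0.00782) and without both arrays of knockout mouse 2 (0.0421).

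Of the enzymes of ISG15, a ubiquitin-like protein attached to other proteins, Herc6 is its ligase in the mouse and Usp18 removes it and also dampens the type I interferon receptor. Herc6 (1432026_a_at) stood at 3.85, 3.46, 4.85, 3.73 and 4.15 in wild-type medium arrays and at 3.68, 2.72, 3.65, 2.89 and 3.27 with IL-33. Its knockout values were 4.02, 3.19, 3.59, 3.48 and 3.73 in medium and 3.19, 2.51, 2.98, 2.96 and 2.88 with IL-33. These levels straddle the 40th percentile, with 4 and 1 of 5 arrays above it in wild-type cells and 2 and 0 of 5 in knockout cells. The fitted falls were 0.76 ± 0.23 (adjusted p = 0.0106) and 0.70 ± 0.23 (adjusted p = 0.0147; 0.0521 without both arrays of knockout mouse 5). Once dim arrays are raised to their percentile, the falls are bounded at 1.30-fold or more and 1.04-fold or more.

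Usp18 was higher with IL-33 in 5 of 5 wild-type and 4 of 5 knockout mice. It was at 0.61 ± 0.33 in wild-type cells (adjusted p = 0.141) and 0.28 ± 0.33 in knockout cells (adjusted p = 0.488). The wild-type value passed with mice as a random (0.0188) or fixed block (0.00208), and with only the wild-type arrays in the fit (0.0473).

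Tap2 is a subunit of the transporter that supplies peptides to MHC class I. The only probe set of its partner Tap1 (1449803_x_at, group means of 2.10 to 2.20) lay below the 40th percentile on every array. A dim probe set does not show that its gene is silent. The probe set of Tap2 (1453913_a_at) stood at 9.45, 9.34, 9.65, 9.51 and 9.53 in wild-type medium arrays and at 8.98, 8.67, 8.88, 8.96 and 8.85 with IL-33. On the knockout arrays it stood at 9.45, 9.15, 9.51, 9.29 and 9.27 in medium and 8.80, 8.52, 8.62, 8.54 and 8.56 with IL-33. No array overlapped, and Tap2 fell by 0.63 ± 0.08 (adjusted p = 4.27e-06) and 0.73 ± 0.08 (adjusted p = 4.15e-07). Nmi, a partner of Ifi35 and of STAT proteins, fell by 0.24 ± 0.07 (adjusted p = 0.00609) and 0.25 ± 0.07 (adjusted p = 0.00345; 0.0724 after a further quantile normalization), and Ifi35 itself was at -0.07 ± 0.10 and -0.13 ± 0.10, not called.

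The second comparison asked whether cells without Dusp5 differ in these genes. In medium, none of the 31 members passed in limma, where 0.0255% of all tested genes did, and 2 had an unadjusted p under 0.05, as did 12.9% of all genes. After IL-33, again none passed, where 2.21% of all tested genes did, and 3 had an unadjusted p under 0.05, as did 24.1% of all genes. The median difference, knockout minus wild type, was 0.08 in medium and -0.03 after IL-33, beside -0.005 and -0.03 for all tested genes. In medium 25 of 31 members had the higher mean in knockout cells, and after IL-33 14 of 31 did. The same share of all tested genes was not counted. Members are not independent, since many deviate together within a mouse. The 95% intervals of single members reached from -0.88 to 1.23 in medium and from -0.82 to 1.14 after IL-33.

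Eif2ak2 was the member furthest apart in medium. Its knockout medium arrays, the highest at 4.16, all lay below the wild-type medium arrays, the lowest at 4.28, and the difference was -0.57 ± 0.15 (adjusted p = 0.383). After IL-33 the genotypes overlapped, with a difference of 0.08 ± 0.15. With array weights in the fit the medium difference passed (adjusted p = 0.0354), as it did without both arrays of wild-type mouse 2 (0.0482). Oasl1 was 0.34 ± 0.13 higher in knockout medium arrays (adjusted p = 0.383; 0.0366 with array weights).

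After IL-33 the smallest adjusted p among the members was that of Tap2, which was 0.26 ± 0.08 lower in knockout cells (adjusted p = 0.0810). It passed without wild-type IL-33 array 2 (0.0225), without knockout IL-33 array 1 (0.0320) and with array weights (0.00843). Leaving out both arrays of wild-type mouse 2 (0.0148) or of knockout mouse 1 (0.0312) gave a call as well. Rsad2 was 0.58 ± 0.27 higher in knockout IL-33 arrays (adjusted p = 0.190) and Adar 0.36 ± 0.17 higher (adjusted p = 0.191), with overlapping groups. Samd9l was at -0.24 ± 0.12 (adjusted p = 0.215) and passed without both arrays of wild-type mouse 2 (-0.34, 0.0336). Gbp2, the largest riser, was at 0.39 ± 0.20 (adjusted p = 0.248; 0.0444 with array weights).

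**Figure D3:**
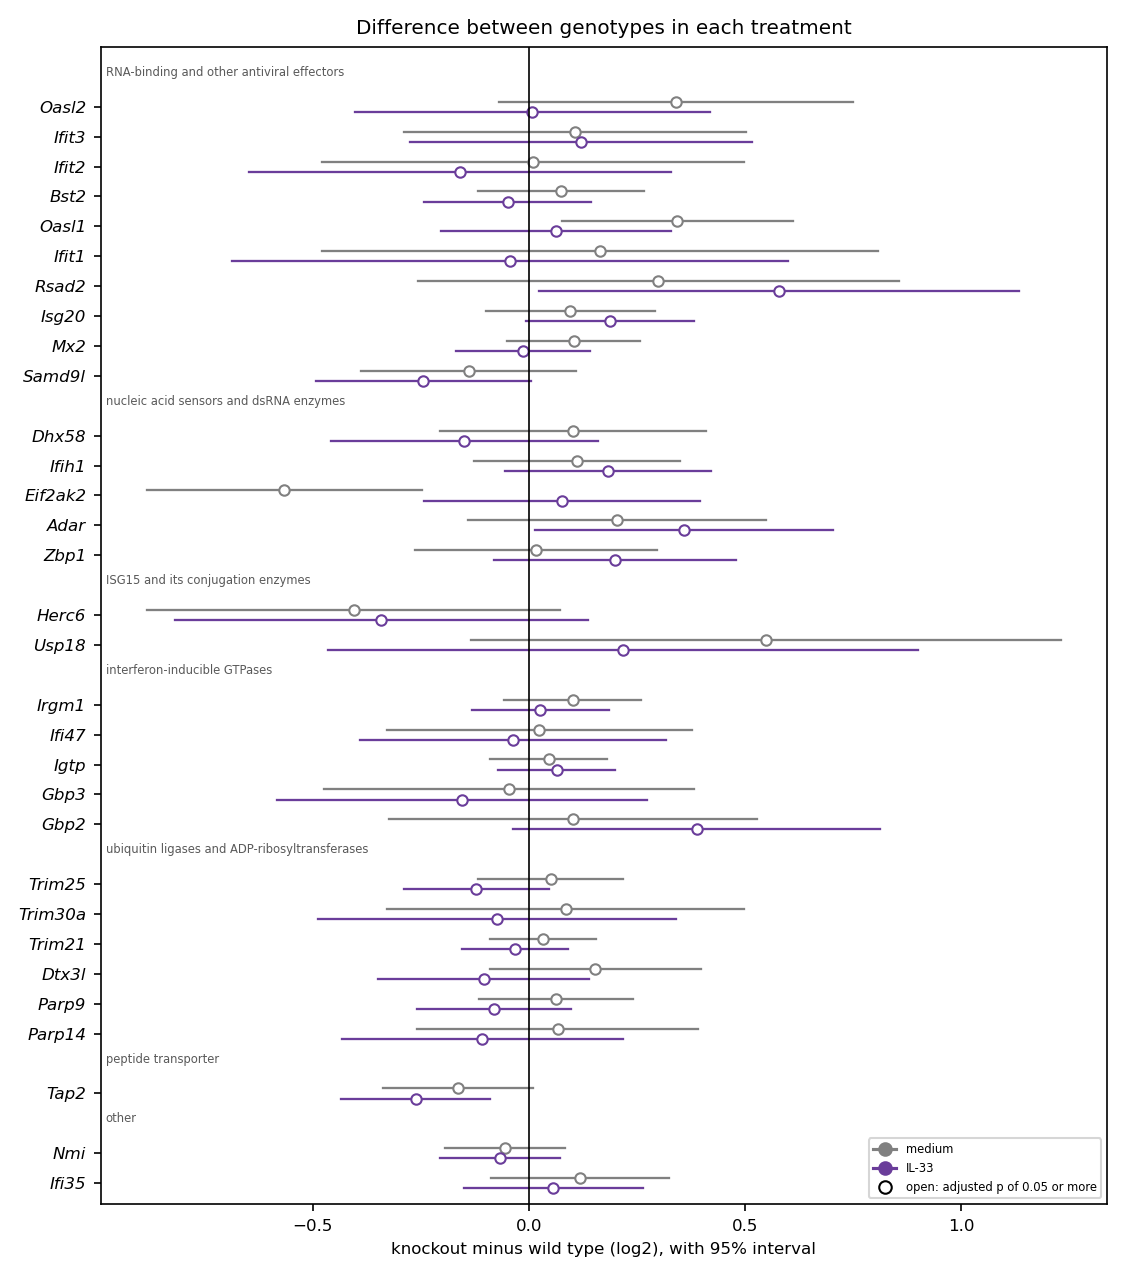
Knockout minus wild type (horizontal axis, log2, with the 95% interval of the limma fit) of the 31 tested members, in medium (grey) and with IL-33 (purple). All points are open, since none passed an adjusted p of 0.05. The intervals are not adjusted for the number of genes. Those of Eif2ak2 in medium and of Tap2 with IL-33 lie wholly below 0. Those of Oasl1 in medium and of Rsad2 and Adar with IL-33 lie wholly above 0.

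The interaction asks whether IL-33 changed a member differently in the genotypes. No member passed in limma, nor did any of all tested genes (percent called 0), and 1 member had an unadjusted p under 0.05, as did 4.83% of all genes. That member was Eif2ak2, whose IL-33 change was 0.64 ± 0.22 higher in knockout cells (adjusted p = 0.789). For Ifit2, Bst2, Dtx3l, Ifih1 and Mx2, the other members called in 1 genotype alone, the difference of changes lay between -0.26 and 0.07.

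The third question was how much the members vary between mice of 1 group. The pooled SD within groups had a median of 0.22 over the 31 members and 0.17 over all tested genes, and 10 members lay at or above the 90th percentile of all tested genes. These were Usp18 (pooled SD 0.571), Ifit1 (0.537), Rsad2 (0.463), Ifit2 (0.405), Herc6, Gbp3, Gbp2, Trim30a, Oasl2 and Ifit3. At the other end lay Trim21 (0.0725, at percentile 2.72 of all tested genes), Igtp (percentile 6.31) and Nmi (percentile 7.51).

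The 4 members of widest spread, Usp18, Ifit1, Rsad2 and Ifit2, were below the group mean on both arrays of wild-type mouse 5 and of knockout mice 1 and 3. Herc6 and Gbp3 differed from them: on the IL-33 array of knockout mouse 1 they were 0.29 and 0.39 above it. Usp18 (1418191_at) stood at 5.38, 6.17, 5.66, 5.53 and 5.02 in wild-type medium arrays and at 6.25, 6.51, 6.51, 6.03 and 5.52 with IL-33. In knockout cells it stood at 5.17, 6.91, 5.49, 6.69 and 6.25 in medium and 5.72, 6.39, 5.86, 7.28 and 6.66 with IL-33. Knockout mice 1 and 3 were low in both treatments, knockout mouse 4 was high in both, and wild-type mouse 5 was the lowest of its group in both.

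Ifit1 (1450783_at) had 4.34, 4.33, 4.63, 4.38 and 3.61 in wild-type medium arrays and 4.47, 4.14, 5.03, 4.17 and 3.66 with IL-33. Its knockout values were 3.89, 5.23, 3.70, 4.75 and 4.54 in medium and 3.92, 4.10, 3.58, 5.13 and 4.52 with IL-33. The same mice were low or high as for Usp18, and knockout mouse 2 was the highest of its group in medium but not with IL-33. Rsad2 (1421009_at) had wild-type medium values of 5.70, 5.21, 5.68, 5.58 and 4.94 and IL-33 values of 5.47, 5.58, 5.88, 5.42 and 4.95. In knockout cells Rsad2 stood at 4.95, 6.54, 5.24, 6.16 and 5.72 in medium and 5.52, 5.91, 5.96, 6.78 and 6.02 with IL-33, where mouse 3 was close to the group mean (-0.08).

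Averaged over the 31 members, the deviation from the group mean was -0.19 and -0.21 for wild-type mouse 5 (medium and IL-33), -0.19 and -0.13 for knockout mouse 1, and -0.18 and -0.19 for knockout mouse 3. Knockout mouse 4 deviated by 0.11 and 0.29, and on its IL-33 array 28 of 31 members were above the group mean. The mean of 8 plasmacytoid dendritic cell markers, a cell type known for making type I interferon, deviated by -0.44 and -0.39 for wild-type mouse 5. It deviated by -0.35 and -0.41 for knockout mouse 1, by -0.49 and -0.59 for knockout mouse 3, and by 0.24 and 0.30 for knockout mouse 4. The 2 measures did not go together in all mice. Wild-type mouse 3 was above the group mean in the members (0.11 and 0.09) and below it in the markers (-0.16 and -0.07), and the IL-33 array of knockout mouse 2 was at -0.06 in the members and 0.15 in the markers. Wild-type mouse 2 deviated by 0.34 and 0.25 in the markers and by 0.03 and 0.05 in the members, and knockout mouse 5 by 0.46 and 0.55 in the markers and by 0.08 and 0.09 in the members.

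All 8 of these markers were above the 40th percentile, among them the surface lectin Siglech (means of 7.04 to 7.47). Their summed level, as log2 of the sum, ranged from 8.90 to 9.78 in wild-type medium arrays, 8.86 to 9.58 with IL-33, 9.12 to 10.16 in knockout medium arrays and 8.79 to 9.99 with IL-33. With IL-33, 1 of the 8 (Spib) fell in each genotype, by 0.81 ± 0.30 and 0.84 ± 0.30, and between genotypes none was called. Other marker lists also ranged within groups. The summed lymphocyte markers were at 7.51 to 9.52 in wild-type and 7.69 to 8.05 in knockout medium arrays. The summed neutrophil markers were at 13.92 to 14.48 and 13.90 to 14.50. Deviations of these other lists were not set beside those of the members. The part of any cell type in the spread of the members was not tested.

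**Figure D4:**
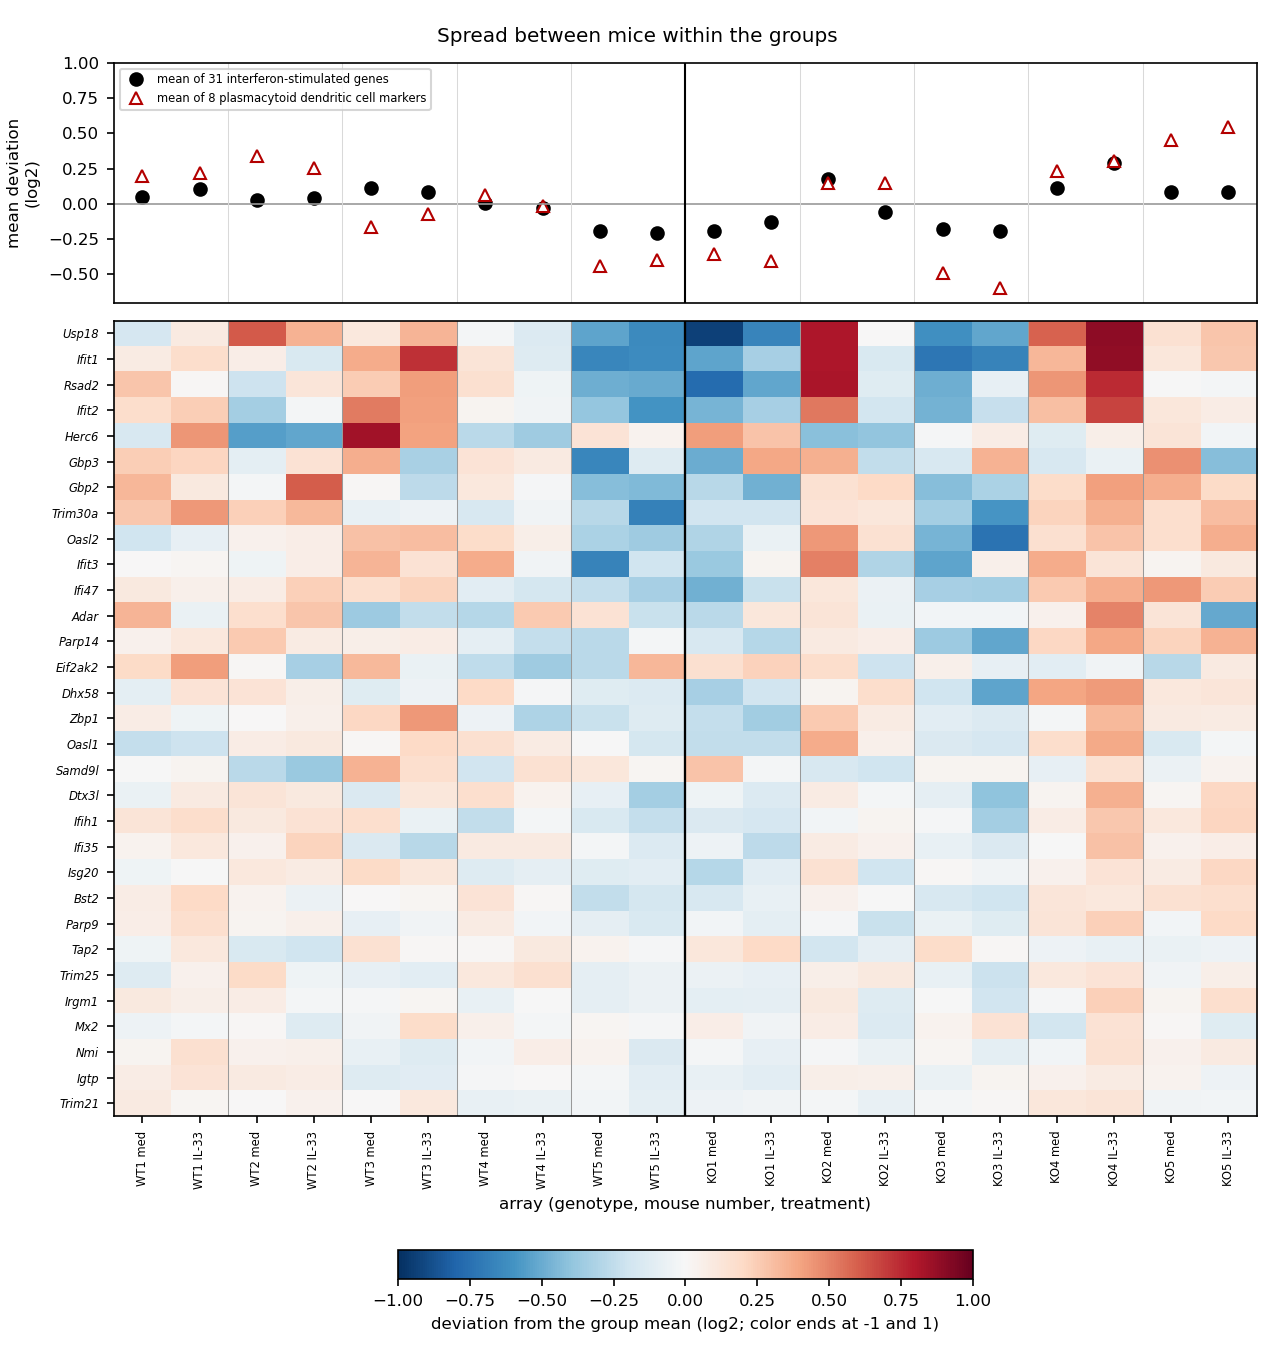
Deviation of each array from its group mean (log2). The top panel gives the mean over the 31 tested members (black points) and over 8 plasmacytoid dendritic cell markers (red triangles). The lower panel gives each member (rows, the most variable at the top), with red above and blue below the group mean; columns are mice with their medium and IL-33 arrays side by side, wild type to the left of the black line. Wild-type mouse 5 and knockout mice 1 and 3 are mostly blue in the upper rows, and the IL-33 array of knockout mouse 4 is red in nearly all rows.

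Finally, the other genes of the interferon pathway were read from lists of interferons, receptors, signal carriers, inhibitors, sensors, chemokines and further interferon-stimulated genes. Of 139 listed genes 87 were tested. With IL-33, 32 rose (36.8%) and 13 fell (14.9%) in wild-type cells, beside 16.1% and 26.7% of all tested genes. In knockout cells 34 rose (39.1%) and 18 fell (20.7%), beside 18.9% and 33.2% of all tested genes. Between genotypes none was called in medium, and after IL-33 only Helz2, a helicase and coactivator, was (0.38 higher in knockout cells, adjusted p = 0.0323). The interaction called none, with 4 at an unadjusted p under 0.05.

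Of 21 listed interferon genes 9 had a probe set. Of these, 7 were below the 40th percentile on too many arrays to be tested, among them Ifnb1 and Ifng. Ifna1 and Ifnz were above it on all 20 arrays, with group means of 3.98 to 4.18 and 5.34 to 5.75, and were not called. Of the 6 receptor chains, 4 rose and 1 fell in each genotype. The type I chain Ifnar1 rose by 0.55 ± 0.07 and 0.57 ± 0.07 in wild-type and knockout cells, while its partner Ifnar2 fell by 0.30 ± 0.07 and 0.57 ± 0.07. The interferon gamma chain Ifngr2 rose by 0.84 ± 0.14 and 0.69 ± 0.14 and Ifngr1 was not called (-0.05 ± 0.13 in both). Ifnlr1, of the interferon lambda receptor, rose by 0.92 ± 0.15 and 0.97 ± 0.15, and Il10rb, which it shares with IL-10, by 0.69 ± 0.06 and 0.51 ± 0.06.

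Behind the receptors, the kinase Tyk2 rose by 1.15 ± 0.10 and 1.02 ± 0.10, and Jak2 by 1.01 ± 0.22 and 1.16 ± 0.22. Stat2 fell in knockout cells (-0.45 ± 0.13) and was not called in wild-type cells (-0.12 ± 0.13), and Irf9 was not called in either (0.12 ± 0.13 and 0.19 ± 0.13). Of the inhibitors 5 of 6 rose in both genotypes, led by Socs3 (3.92 ± 0.17 and 3.95 ± 0.17) and Socs1 (2.16 ± 0.12 and 2.49 ± 0.12), which block JAK kinases, and followed by the phosphatases Ptpn2 (1.20 ± 0.14 and 1.47 ± 0.14) and Ptpn1 (1.00 ± 0.08 and 0.98 ± 0.08). Of the 7 other tested Irf transcription factors, 3 rose and 1 fell in wild-type cells, and 2 rose and 1 fell in knockout cells. Irf4, a factor of immune cell differentiation, rose by 2.73 ± 0.16 and 3.01 ± 0.16 and Irf7, the amplifier of interferon production, by 0.80 ± 0.20 and 0.85 ± 0.20. Irf1, which drives GTPase and antigen presentation genes, fell by 0.66 ± 0.10 and 0.84 ± 0.10.

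Of 11 tested sensing and adaptor genes 4 rose and 3 fell in wild-type cells, and 6 rose and 3 fell in knockout cells. Ikbke, a kinase that activates Irf3, rose by 2.68 ± 0.10 and 2.81 ± 0.10, and the endotoxin receptor gene Tlr4 by 0.35 ± 0.10 and 0.45 ± 0.10. The adaptor genes Myd88 (0.39 ± 0.08 and 0.30 ± 0.08) and Ticam1 (0.19 ± 0.07 and 0.28 ± 0.07) rose too, and in knockout cells Tbk1 (0.31 ± 0.06) and Tlr9 (0.24 ± 0.09). Sting1, the adaptor of cytosolic DNA sensing, fell by 1.29 ± 0.14 and 1.63 ± 0.14, Mavs, the adaptor of RNA sensing, by 0.45 ± 0.07 and 0.72 ± 0.07, and Ddx58, which encodes RIG-I, by 0.38 ± 0.11 and 0.36 ± 0.11. Of the interferon-inducible chemokines 4 of 5 tested rose in each genotype, among them Cxcl10 (2.59 ± 0.15 and 2.56 ± 0.15) and Ccl5 (2.24 ± 0.25 and 2.41 ± 0.25), while Cxcl11 was not called (0.17 ± 0.10 and 0.20 ± 0.10). Of 9 tested MHC class I and immunoproteasome genes 3 rose and 2 fell in wild-type cells, and 3 rose and 3 fell in knockout cells. The proteasome subunits Psmb9 (-0.93 ± 0.07 and -1.09 ± 0.07) and Psmb8 (-0.54 ± 0.06 and -0.65 ± 0.06) fell, while a further subunit, Psmb10 (0.23 ± 0.07 and 0.32 ± 0.07), H2-D1 (0.34 ± 0.10 and 0.41 ± 0.10) and B2m (0.17 ± 0.07 and 0.22 ± 0.07) rose.

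Of 36 further tested interferon-stimulated genes, 7 rose and 6 fell in wild-type cells and 8 rose and 9 fell in knockout cells. The risers included Cd274, the inhibitory ligand PD-L1 (1.34 ± 0.09 and 1.23 ± 0.09), Ube2l6, an ISG15-conjugating enzyme (at least 1.61-fold and at least 1.72-fold, since 1 and 0 of 5 medium arrays were above the 40th percentile), and Tor3a (0.88 ± 0.08 and 0.90 ± 0.08). The fallers included Cmpk2, a nucleotide kinase beside Rsad2 in the genome (-1.16 ± 0.21 and -0.96 ± 0.21), Ddx60 (at least 1.52-fold and at least 1.64-fold, with 0 and 1 of 5 IL-33 arrays above that percentile) and Trim14, a mitochondrial adaptor (-0.78 ± 0.11 and -1.01 ± 0.11).

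**Figure D5:**
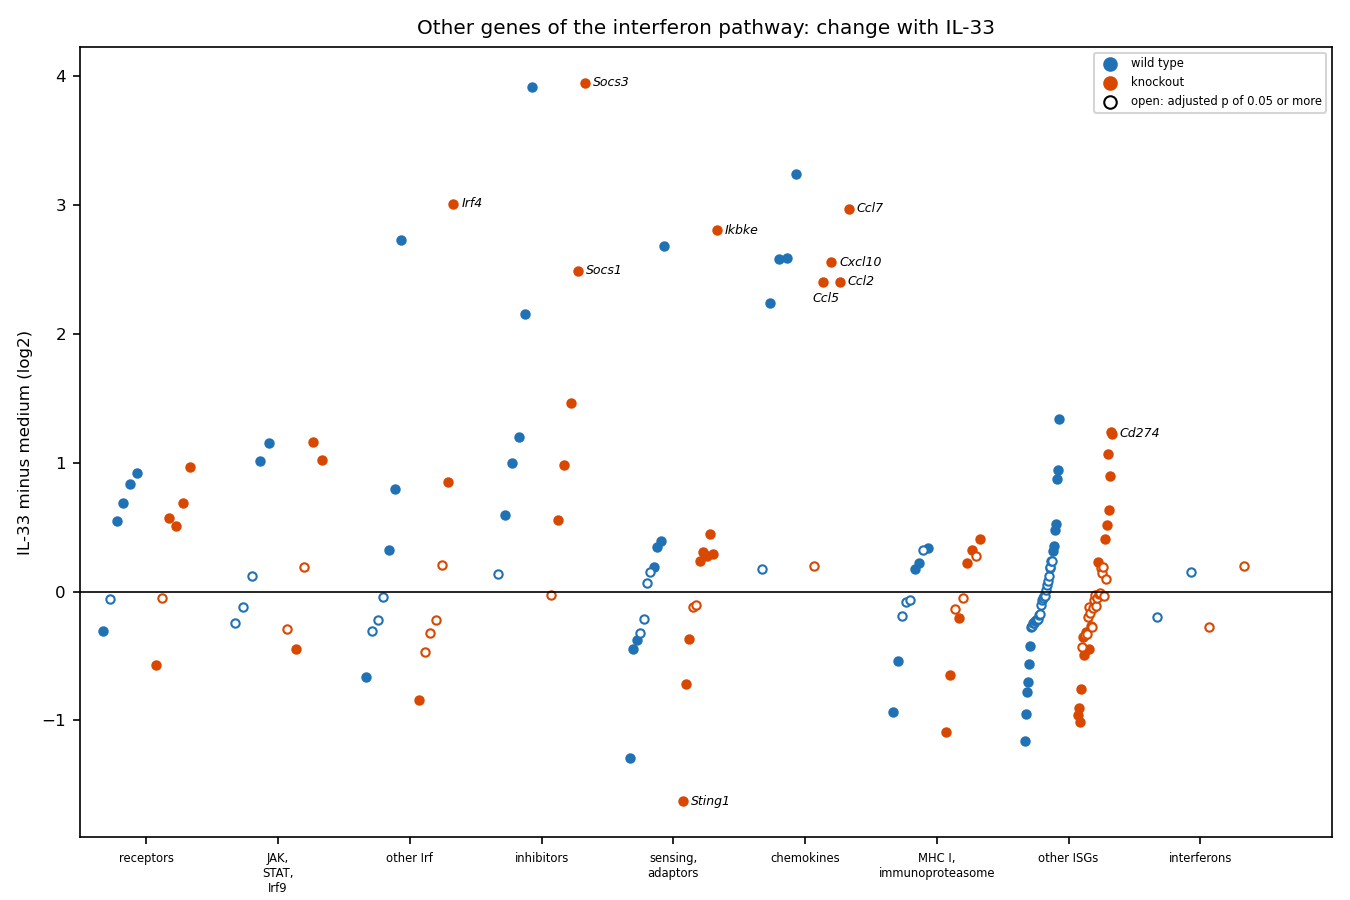
Change with IL-33 (vertical axis, log2) of 87 tested interferon pathway genes outside the list of 38, by role (horizontal axis), in wild-type (blue) and knockout (orange) cells, each role's genes ordered by their wild-type change. Filled points passed an adjusted p of 0.05. In wild-type cells Socs3, Ccl7, Irf4, Ikbke, Ccl2 and Cxcl10 lie highest and Sting1 lowest.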

How the data were processed

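One-colour Affymetrix arrays measured RNA from 20 samples, labelled, per the labels, with a 3' IVT Express kit. In the table that the authors deposited (20 arrays, 20630 probe sets) the values are log2 levels, a scale read from their range (1.27 to 13.99). The sources used here do not give the background correction, summarization or normalization. The table was not changed, so small differences depend on the scaling between arrays that the table already carries.

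Genes came from the platform annotation: 17826 probe sets had 1 symbol, 91 had several, 2711 had none and 2 were controls. Of the first kind, 17675 were matched to RefSeq genes (GRCm38.p6) for current symbols. For 54 genes with several probe sets the one with the highest mean was used; each member had 1. A gene was tested when above its array's 40th percentile (3.56 to 3.68) on at least 5 arrays. Where a group's arrays were dim, a fold is a lower bound, with arrays below the percentile set to it.

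A mean per group was fitted over the 20 arrays with lmFit and eBayes (limma 3.58.1, R 4.3.3; residual degrees of freedom 16), tested on simulated data first. It gave 5 comparisons. Adjusted p is Benjamini-Hochberg over the 11766 tested genes, and "called" means an adjusted p under 0.05. The members and the gene lists were chosen with earlier results of these data known, so counts over them are descriptions. Up to 12 called members with the largest change are given array by array, as are Usp18, Ifit1 and Rsad2, chosen for their spread after it was seen; from the other pathway lists up to 4 called genes per direction are named, with receptors and signal carriers, and Tbk1 and Tlr9 were added after their values were seen. ISRE, GAS and NF-kB letters were counted in RefSeq promoters with Python 3.11.15.

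The series text names 5 mice per genotype. Same-numbered medium and IL-33 arrays of a genotype deviated from their group means together (correlation 0.262 to 0.783, the best match for 10 of 10). These arrays were treated as those of 1 mouse. Same-numbered arrays of different genotypes in the same treatment come from different mice, and their deviations correlated at -0.181 to 0.601. Whether the number stands for more than the mouse was not tested. A fit with the mouse as a block is given beside a result where it changes a call. Other alternatives were no filter or the 60th percentile, quantile normalization, median centring, only the groups compared, an intensity trend, array weights, the lowest probe set, and leaving out each array or mouse.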

Additional observations from a re-analysis of the deposited data

Results flagged for a closer look

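In groups of 5 arrays, the highest or lowest value was compared with its gap to the nearest of the others, for each tested member in each group. Chance alone gives such a flag in about 1 of 20 groups, and 5 of 124 groups had one. In knockout IL-33 arrays, Ifit3 was at 4.20 on array 2, with the others between 4.53 and 4.63. In knockout medium arrays, Mx2 was at 3.37 on array 4, below the 40th percentile, with the others between 3.57 and 3.63, and Trim21 was at 7.79 on array 4, with the others between 7.63 and 7.66. In wild-type IL-33 arrays, Samd9l was at 9.61 on array 2, with the others between 10.00 and 10.15, and Dtx3l was at 7.61 on array 5, with the others between 7.99 and 8.06.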

How the results depend on the processing

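Members called with IL-33 numbered 11 to 18 in wild-type and 11 to 21 in knockout cells over all alternatives. Over the same alternatives 4242 to 6801 and 5361 to 7703 of all tested genes were called. The mouse as a random or fixed replicate block gave 17 and 18 in wild-type and 21 and 20 in knockout cells. All calls of the fit without the block were kept. Calls among all 11766 tested genes rose with the block too, from 5027 to 6690 (random) and 6801 (fixed) in wild-type cells. In knockout cells they rose from 6137 to 7698 and 7703. Blocked calls that differ stand beside each gene. The block changed no call in the genotype comparisons (random) or the interaction (both), which stayed at 0 members. With array weights, 3 members were called between genotypes in medium (Eif2ak2 lower, Oasl1 and Usp18 higher in knockout cells) and 5 after IL-33 (Tap2 lower; Gbp2, Isg20, Rsad2 and Zbp1 higher); the same weights raised the calls among all genes from 3 to 1467 and from 260 to 2321. Leaving out an array or mouse gave 0 to 1 members in medium and 0 to 2 after IL-33. Among all tested genes the same omissions called 3 to 656 in medium and 24 to 2098 after IL-33. The interaction called 0 members in every alternative run. No called value changed sign. Promoter shares moved with the genes compared: over 9529 tested genes the ISRE core was in 3.65%, GAS in 8.37% and the NF-kB letters in 70.9%. Stricter NF-kB letters (GGGA, any 4 bases, then CC) were added after the data were seen. They were in 30.8% of members, 22.9% of all genes and 30.1% of the tested genes. Dim members (Herc6, Mx2) are bounded by the percentile, which stands in for a background the table does not give.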
